A study of Mus musculus with 23 samples.

Results

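Wnt ligands, their receptors and their antagonists were followed in mouse striatal tissue as 80 probe sets of 43 genes, among 38143 probe sets that carry 1 gene symbol. Members were chosen by symbol alone. They comprise 32 probe sets of 19 Wnt ligand genes, 25 of 10 Frizzled (Fzd) receptor genes, 2 of the coreceptors Lrp5 and Lrp6, 9 of 4 secreted frizzled-related protein (Sfrp) genes, 7 of 5 Dickkopf-family (Dkk) genes, 1 of Wif1 and 4 of Axin1 and Axin2. The striatum receives the main input to the basal ganglia, and medium spiny neurons are its most numerous nerve cells. The 23 arrays came from wild-type mice (WT, 11 arrays) and from mice with the genotype label "Ezh1; Ezh2 Camk Cre" (dKO, 12 arrays). The 6-week groups had 3 arrays each. At 3 months 4 WT arrays were set against 3 dKO arrays, and at 6 months 4 against 6.

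Ezh1 and Ezh2 encode alternative methyltransferases of PRC2, a Polycomb complex that methylates histone H3 at silenced genes. Camk-driven Cre is known to act mainly in neurons of the forebrain. The sources used here do not give which parts of either gene were removed, which Camk line was used or whether WT mice carried Cre or modified alleles. The design text calls the controls littermates of matching age and sex. The tissue is bulk, so fewer cells of a type and less RNA per cell cannot be told apart. Each value is an RMA log2 expression value that had been centred per probe set, so values compare arrays for 1 probe set and carry no level. Precision is limited by how many arrays each group has.

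Wnt proteins are secreted lipid-modified ligands that bind Fzd receptors. With Lrp5 or Lrp6 as coreceptor they stabilise beta-catenin, which acts on transcription with TCF and LEF factors, and through other coreceptors they steer cell polarity and calcium signalling. Sfrp proteins and Wif1 bind Wnts outside the cell, most Dkk proteins block Lrp5 and Lrp6, and Axins hold the complex that destroys beta-catenin. In the brain the pathway is known for patterning, axon guidance and synapse formation.

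Differences are dKO minus WT on the log2 scale, as value ± standard error (SE). A call means that limma gave a p under 0.05 after Benjamini-Hochberg adjustment over all 38143 probe sets. Ezh1 was called lower at every age in 3 of its 4 probe sets, and in the other at 6 weeks and 6 months (log2 fold changes -0.83 to -2.10 over all 4). Ezh2, with 1 probe set, changed by -0.40, -0.45 and -0.43 at the 3 ages and was called at none (limma adjusted p = 0.601, 0.631 and 0.0671). By Ezh1, dKO replicate 3 at 6 weeks stood apart from its label. Its value (1449023_a_at) was 1.47, against -0.37 and -0.62 in the other dKO arrays and 2.07 to 2.28 in WT. Ezh2 at 6 weeks read 0.91, -0.11 and 0.81 in dKO replicates 1 to 3 and 0.75 to 1.09 in WT. By Ezh2, dKO replicates 1 and 3 thus lay within the WT range. Centred values cannot show whether a cell type is present. The median of 37 medium spiny neuron probe sets ran from -0.01 to 0.19 in WT and from -0.68 to -0.42 in dKO at 6 months, with 24 called lower. The median of 28 thalamic or pallidal neuron probe sets ran from -0.48 to -0.38 in WT and from -0.20 to 0.45 in dKO at 6 weeks. No fit took the medium spiny neuron median as a covariate, and its part in the results was not tested. The thalamic or pallidal median entered only the covariate fits given below.

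**Figure D1:**
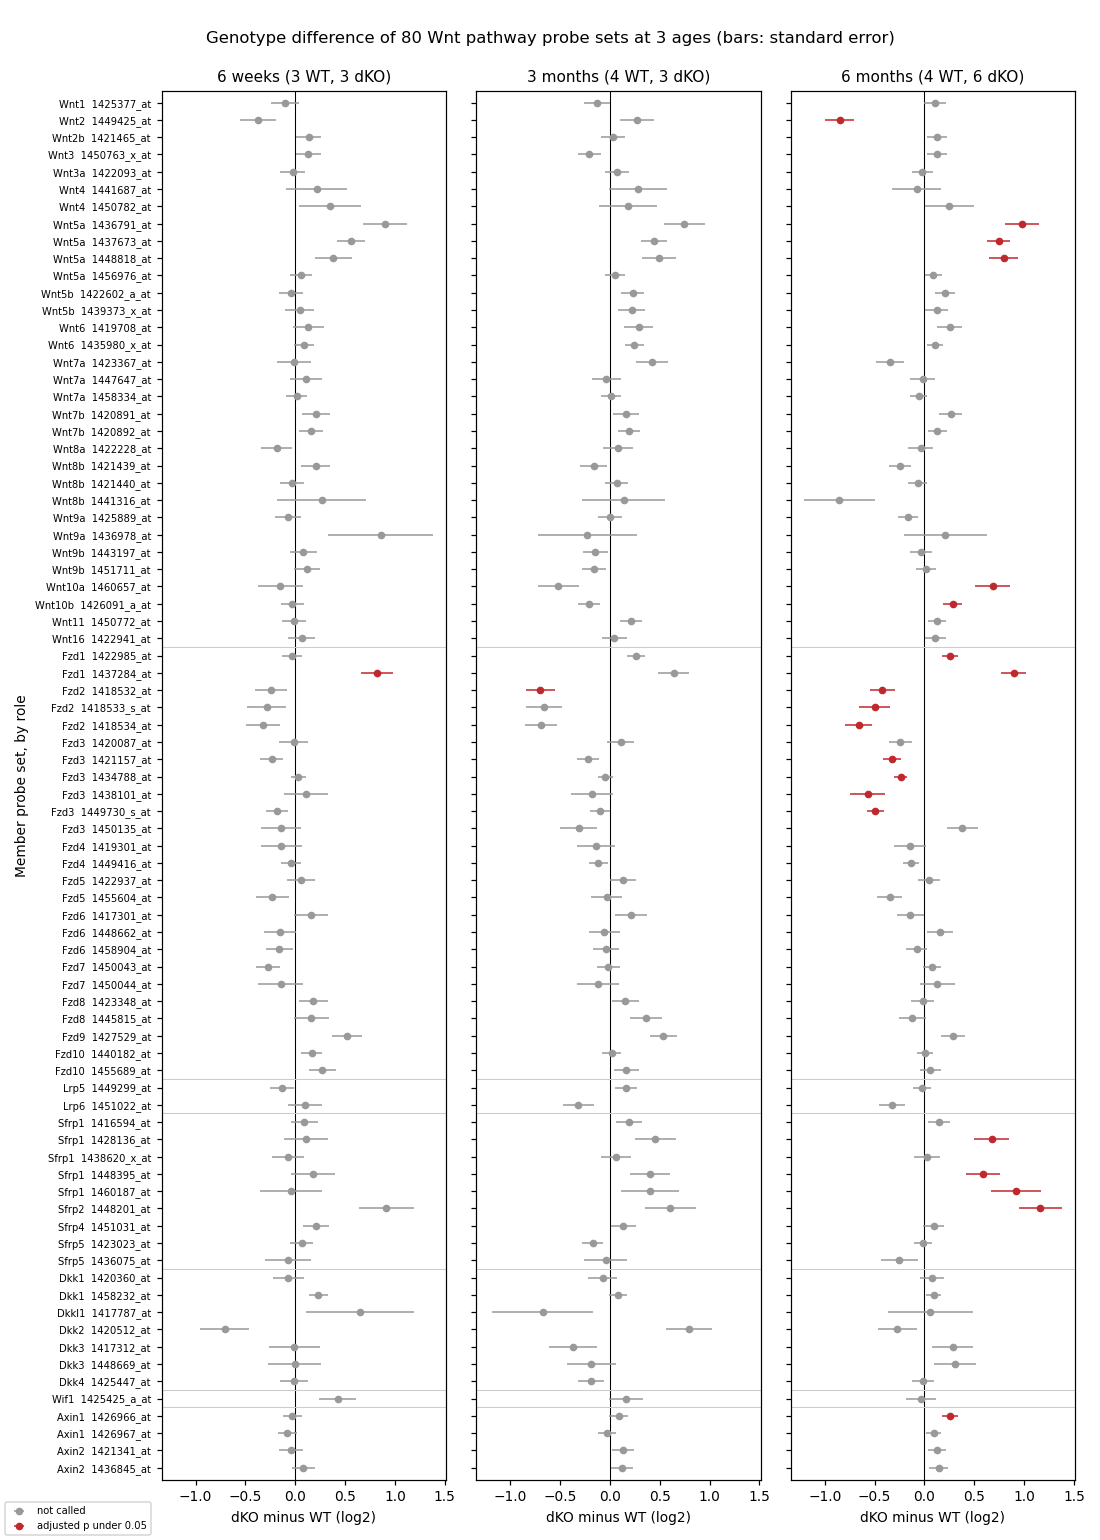
Log2 fold change of dKO over WT (x axis, log2 units) with its standard error (bars) for each of the 80 member probe sets (y axis, ordered by role) at 3 ages. Red points passed an adjusted p of 0.05: 1 at 6 weeks, 1 at 3 months and 20 at 6 months.

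At 6 months 12 member probe sets (15%) of 7 genes were higher in dKO and 8 (10%) of 3 genes were lower. Of all probe sets, 7.62% were called higher and 8.07% lower, so the share of members called lower was near the background. The higher genes were Sfrp2, Sfrp1, Wnt5a, Fzd1, Wnt10a, Wnt10b and Axin1, and the lower genes were Wnt2, Fzd2 and Fzd3. The median log2 fold change over the 80 members was 0.07, against -6e-04 over all probe sets. All 20 called probe sets kept their direction in each of 15 other settings that tested them and with each of the 23 arrays left out. Axin1 1426966_at and Fzd1 1422985_at were tested in 14 of these settings, since the filter on SD left them out. The call held throughout for 7 of the 20, belonging to Sfrp2, Wnt5a (3 probe sets), Fzd1, Wnt2 and Fzd2. Settings with 1 value a gene scored its probe set of largest SD, or the mean of its probe sets, in place of the named one. The stricter thresholds reused the main fit, so direction could not change there. Without WT replicate 3 of 6 months, 6 members were called higher and 5 lower, and without WT replicate 1 of 6 months 5 were called lower. These refits rest on fewer arrays, and no share over all probe sets was at hand for them.

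Of the 10 genes called at 6 months, 4 had a promoter in the RefSeq table (mouse assembly GRCm38.p6), and these are shown because PRC2 is known to occupy mainly promoters rich in CpG. Each sequence is the 250 bases before the transcript start, read 5′ to 3′ on the gene's strand, with every CpG in capitals. Fzd1 lies at chr5:4758217-4758466 on the minus strand, Sfrp2 at chr3:83766071-83766320 on the plus strand, Wnt10b at chr15:98778151-98778400 on the minus strand and Wnt2 at chr6:18030446-18030695 on the minus strand.
Fzd1: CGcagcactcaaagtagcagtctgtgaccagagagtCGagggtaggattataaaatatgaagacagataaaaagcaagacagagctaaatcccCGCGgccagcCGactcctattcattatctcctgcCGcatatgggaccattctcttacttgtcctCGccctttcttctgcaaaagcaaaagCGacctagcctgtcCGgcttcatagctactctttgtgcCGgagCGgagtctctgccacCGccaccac
Sfrp2: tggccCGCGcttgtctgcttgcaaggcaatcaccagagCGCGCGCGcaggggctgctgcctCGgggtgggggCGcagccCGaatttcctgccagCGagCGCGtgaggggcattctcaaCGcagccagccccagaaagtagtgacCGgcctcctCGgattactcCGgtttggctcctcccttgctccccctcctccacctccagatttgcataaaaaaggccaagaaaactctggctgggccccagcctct
Wnt10b: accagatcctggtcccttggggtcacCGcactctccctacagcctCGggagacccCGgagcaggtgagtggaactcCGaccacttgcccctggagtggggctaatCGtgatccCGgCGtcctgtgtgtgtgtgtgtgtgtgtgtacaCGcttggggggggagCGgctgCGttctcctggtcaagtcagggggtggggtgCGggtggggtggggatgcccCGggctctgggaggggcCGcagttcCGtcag
Wnt2: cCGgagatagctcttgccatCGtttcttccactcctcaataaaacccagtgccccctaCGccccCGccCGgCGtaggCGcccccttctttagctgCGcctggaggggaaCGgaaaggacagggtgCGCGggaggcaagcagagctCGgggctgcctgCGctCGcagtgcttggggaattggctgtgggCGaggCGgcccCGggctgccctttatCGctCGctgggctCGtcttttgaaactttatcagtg
The windows held 12 CpGs in Fzd1, 16 in Sfrp2, 14 in Wnt10b and 20 in Wnt2. The 3 genes that were higher and the 1 that was lower thus all exceeded the median of 6 over the 32851 windows of the table. So did most of the pathway: for 28 of the 43 member genes 31 windows were counted, with a median of 22 CpGs (4 to 48). The 75th percentile over all windows was 16, which of the 4 only Wnt2 exceeded, and all 4 lay below the member median. The letters CTTTGA, part of the TCF and LEF recognition sequence, were searched on both strands. They occurred in 12.9% of member windows and 13.8% of all windows, and among the 4 shown only in Fzd1, as tcaaag near the 5′ end. A match of letters describes the window and is not a binding site.

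Among the ligands, 5 of 32 probe sets (15.6%) were higher at 6 months and 1 (3.12%) lower, against 7.62% and 8.07% over all probe sets. The other 26 ranged from -0.86 to 0.26. Wnt5a, a ligand known mainly for signalling without beta-catenin, carried 3 of the 5. Its probe set 1437673_at read -0.07, -0.35, 0.05 and -0.12 in the 4 WT arrays. The 6 dKO arrays ran from 0.43 through a median of 0.60 to 0.95. All dKO arrays lay above all WT arrays, a rise of 0.74 ± 0.11 or 1.68-fold (limma adjusted p = 0.000125).

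Probe set 1436791_at of Wnt5a read 0.34, -0.34, 0.10 and -0.39 in WT and from 0.63 through 0.92 to 1.14 in dKO, again without overlap (0.98 ± 0.17, limma adjusted p = 0.000524). For 1448818_at the WT values were 0.18, -0.51, -0.35 and -0.37 and the dKO values 0.03 to 0.89 with a median of 0.57. There the groups overlapped, and the rise was 0.80 ± 0.14 (limma adjusted p = 0.000736). The remaining probe set, 1456976_at, did not pass (0.09 ± 0.08, limma adjusted p = 0.537).

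Wnt2, a ligand that acts through beta-catenin, was the only ligand called lower. It read -0.12, -0.06, 0.00 and 0.00 in WT at 6 months. In dKO it ran from -1.20 through -0.90 to -0.53. The groups were far apart, with a change of -0.85 ± 0.14, to 55.4% of WT (limma adjusted p = 0.000349).

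Wnt10a and Wnt10b, paralogous ligands that signal through beta-catenin, rose by different amounts. Wnt10a read -0.85, -0.17, -0.62 and -0.60 in WT and from -0.14 through 0.14 to 0.34 in dKO. The lowest dKO array lay just above the highest WT array, and the rise was 0.68 ± 0.18 or 1.61-fold (limma adjusted p = 0.0108). Wnt10b read -0.19, -0.02, 0.00 and 0.01 in WT and from 0.11 through 0.18 to 0.50 in dKO (0.28 ± 0.09, limma adjusted p = 0.0407). Its call was lost without any 1 of 6 arrays, among them each of the 4 WT arrays. The largest negative difference of any member, Wnt8b 1441316_at at -0.86 ± 0.36, did not pass (limma adjusted p = 0.111), and the other Wnt8b probe sets lay nearer 0.

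**Figure D2:**
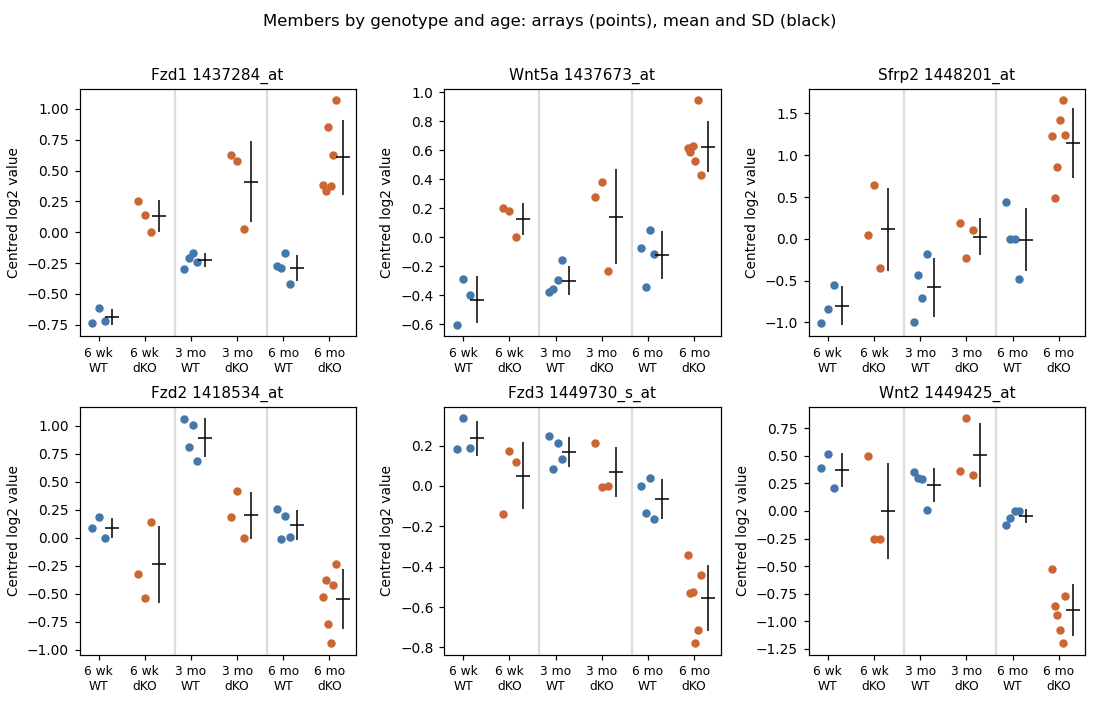
Centred log2 value (y axis) of 6 members by age and genotype (x axis), with each array as a point (blue WT, orange dKO) and the group mean and SD in black. At 6 months the 6 dKO arrays of Fzd1, Wnt5a and Sfrp2 lie above all 4 WT arrays, and those of Fzd2, Fzd3 and Wnt2 lie below them.

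Of 25 Frizzled receptor probe sets, 7 (28%) were lower at 6 months, against 8.07% of all probe sets. All 7 belonged to 2 of the 10 Fzd genes, Fzd2 and Fzd3, so they do not count separate genes. The share called higher, 2 probe sets (8%), was near the background of 7.62%. The higher pair belonged to Fzd1. Its probe set 1437284_at read -0.27, -0.29, -0.17 and -0.42 in WT and from 0.33 through 0.50 to 1.07 in dKO. No dKO array reached the WT range, and the rise was 0.89 ± 0.13 or 1.86-fold (limma adjusted p = 7.14e-05). The other Fzd1 probe set, 1422985_at, rose by 0.25 ± 0.08 (limma adjusted p = 0.0291), also without overlap.

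All 3 probe sets of Fzd2 were lower. Probe set 1418534_at read 0.26, -0.01, 0.20 and 0.00 in WT and from -0.95 through -0.47 to -0.23 in dKO. The groups did not overlap, and the change was -0.66 ± 0.14, to 63.4% of WT (limma adjusted p = 0.00210). The changes were -0.50 ± 0.15 for 1418533_s_at (limma adjusted p = 0.0288) and -0.42 ± 0.12 for 1418532_at (limma adjusted p = 0.0239). The suffix _s_at marks probes that can match transcripts of more than 1 gene.

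Fzd2 lies on chromosome 11 with the targeted gene Ezh1, with 53 protein-coding genes between them in the RefSeq table. Of the members, Wnt9b, Wnt3, Axin2, Wnt9a and Wnt3a are on the same chromosome, with 82 to 791 genes between, and none of these was called at 6 months. The 280 probe sets of 154 genes within 100 genes either side of Ezh1 were called in 2.14% at 6 weeks, 0.357% at 3 months and 16.1% at 6 months. Over all probe sets the shares were 0.202%, 0.262% and 15.7%. The part of this neighbourhood in the Fzd2 difference was not tested.

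Fzd3, a receptor known from mouse axon guidance, had 4 of 6 probe sets lower. Probe set 1449730_s_at read 0.00, -0.13, 0.04 and -0.16 in WT and from -0.78 through -0.53 to -0.34 in dKO, without overlap (-0.49 ± 0.09, limma adjusted p = 0.000543). The other 3 calls were -0.57 for 1438101_at, -0.33 for 1421157_at and -0.24 for 1434788_at (limma adjusted p = 0.0301, 0.0208 and 0.0106), and groups overlapped for the first of them. Probe sets of Fzd3 disagreed: 1420087_at was at -0.24 and 1450135_at at 0.38, neither called. The remaining Fzd probe sets, of Fzd4 to Fzd10, ranged from -0.35 to 0.29. Lrp5 (-0.03 ± 0.09) and Lrp6 (-0.32 ± 0.13, limma adjusted p = 0.104) did not pass.

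Among the secreted antagonists the calls were in the Sfrp family, with 4 of 9 probe sets (44.4%) higher and none lower. Over all probe sets 7.62% were higher, and the 4 belonged to 2 of the 4 Sfrp genes. Sfrp2 had the largest rise of any member. It read 0.44, 0.00, 0.00 and -0.48 in WT and from 0.49 through 1.24 to 1.66 in dKO. The lowest dKO array was just above the highest WT array, and the rise was 1.16 ± 0.22 or 2.24-fold (limma adjusted p = 0.00100). The patterns most like Sfrp2 over the 23 arrays were those of Bid (Pearson r = 0.949), Tmie (0.943) and Unc119 (0.937), and for Wnt2, taken after its values were seen, Zfp3 (0.956), Actn2 (0.954) and Kctd1 (0.952). For Wnt8b 1441316_at they were Kctd8 (0.804), Gpr12 (0.802) and Zc3h4 (0.785).

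Sfrp1 rose in 3 of 5 probe sets. For 1460187_at the WT values were -0.16, -0.48, -1.29 and -0.56, and the dKO values ran from -0.26 through 0.22 to 1.16. The groups overlapped, and WT replicate 3 was the lowest array (0.92 ± 0.25, limma adjusted p = 0.0143). The rises of 1428136_at and 1448395_at were 0.67 ± 0.17 and 0.58 ± 0.17 (limma adjusted p = 0.0108 and 0.0239). Without WT replicate 3 none of the 3 passed. The median of 20 meningeal fibroblast probe sets ran from -0.14 to 0.15 in WT and from -0.09 to 0.22 in 5 dKO arrays at 6 months, with dKO replicate 6 at 0.91. Of these probe sets 4 were called higher in dKO, and its part in the Sfrp and Wnt5a differences was not tested. Sfrp4 and Sfrp5 did not pass, at -0.25 to 0.09.

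No probe set of Dkk1, Dkk2, Dkk3, Dkk4, Dkkl1 or Wif1 was called at 6 months, and they ranged from -0.27 to 0.31. Axin1, a scaffold of the destruction complex, was higher in 1 of 2 probe sets (1426966_at, 0.26 ± 0.08, limma adjusted p = 0.0281), and 11 other settings or left-out arrays ended that call. Axin2, which is known as a transcriptional target of beta-catenin as well as a scaffold, was at 0.13 ± 0.09 and 0.14 ± 0.09 in its 2 probe sets (limma adjusted p = 0.411 and 0.338).

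At 6 weeks only Fzd1 was called, 1 member (1.25%) higher and none lower, against 0.11% higher and 0.0918% lower over all probe sets. Another 10 members had an unadjusted p under 0.05, a count with no share over all probe sets at hand. Fzd1 1437284_at read -0.73, -0.61 and -0.72 in WT and 0.26, 0.14 and 0.00 in dKO. All dKO arrays lay above WT, with a difference of 0.82 ± 0.16 (limma adjusted p = 0.0341). The other Fzd1 probe set, 1422985_at, was at -0.03, and the mean of both was at 0.39 and did not pass (limma adjusted p = 0.111). With array weights in the fit, 11 members were called higher and 5 lower at 6 weeks, with no share over all probe sets at hand. The Fzd1 call was lost without any WT array of 6 weeks or without dKO replicate 2 (limma adjusted p = 0.0933 to 0.195). Without dKO replicate 3, the library with high Ezh1, 2 members were called higher, again with no share over all probe sets at hand. With the medians of cortical, choroid plexus and thalamic or pallidal markers as covariates the Fzd1 1437284_at difference was 0.96 ± 0.23 (limma adjusted p = 0.197). The thalamic or pallidal median did not overlap between genotypes at this age, so the fit separates it from genotype poorly.

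The next members at 6 weeks did not pass. Wnt5a 1436791_at read -1.17, -0.90 and -0.45 in WT and 0.30, 0.33 and -0.45 in dKO, the last in the library with high Ezh1 (0.90 ± 0.22, limma adjusted p = 0.104). Wnt5a 1437673_at and Fzd9, a receptor of the same family, were at 0.56 ± 0.14 and 0.52 ± 0.15, with groups that did not overlap (limma adjusted p = 0.129 and 0.184).

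At 3 months 1 member (1.25%) was called lower and none higher, against 0.0236% lower and 0.239% higher over all probe sets. A further 15 had an unadjusted p under 0.05, again with no share over all probe sets at hand. Fzd2 1418532_at read 0.89, 0.81, 0.89 and 0.64 in WT and 0.33, 0.29 and -0.29 in dKO. Every dKO array lay below WT, a fall of 0.70 ± 0.15 on the log2 scale to 61.6% of WT (limma adjusted p = 0.0431). That call was lost with 14 of the 23 arrays left out in turn, and without dKO replicate 3 of 3 months the value was -0.50 (limma adjusted p = 0.196). Fzd2 1418534_at was at -0.69 ± 0.16 (limma adjusted p = 0.0802) and 1418533_s_at at -0.66, neither called. Fzd1 1437284_at was at 0.64 ± 0.15 (limma adjusted p = 0.0963), and Fzd9 at 0.54 ± 0.14 (limma adjusted p = 0.150).

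The difference between genotypes itself was compared between ages. From 6 weeks to 6 months no member was called by limma, against 0.71% of all probe sets. An unadjusted p under 0.05 was found in 11 members, with no share over all probe sets at hand. From 3 months to 6 months 2 members were called, against 1.11% of all probe sets. The 6-month group took part in both comparisons.

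Wnt10a read -0.08, 0.54, 0.14 and 0.69 in WT and -0.13, -0.52 and 0.08 in dKO at 3 months, with dKO mostly the lower. At 6 months dKO was the higher, and the genotype difference moved by 1.20 ± 0.27 (limma adjusted p = 0.0327). This call was lost without any 1 of 8 arrays.

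Wnt2 read 0.35, 0.30, 0.29 and 0.01 in WT and 0.36, 0.84 and 0.32 in dKO at 3 months. The difference moved by -1.12 ± 0.22 (limma adjusted p = 0.0123). Without dKO replicate 2 of 3 months, the array at 0.84, the move was -0.95 and no longer passed (limma adjusted p = 0.0689).

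WT mice alone were compared between 6 weeks and 6 months. Of the members, 11 (13.8%) of 10 genes were higher at 6 months and 4 (5%) of 3 genes lower, against 6.64% and 9.16% over all probe sets. Dkk2, which is known to block or weakly activate Lrp6 depending on context, had the largest change. It read 2.07, 1.66 and 1.58 at 6 weeks, from -0.15 to 0.08 at 3 months, and -0.31, -0.15, 0.00 and -0.15 at 6 months. Among WT arrays it was thus high at 6 weeks only, with a change of -1.92 ± 0.23, to 26.4% (limma adjusted p = 2.86e-05).

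In dKO, Dkk2 read 1.93, 0.64 and 0.63 at 6 weeks and 0.48, 1.03 and 0.90 at 3 months, the latter all above WT. The genotype differences were -0.71 ± 0.25 at 6 weeks and 0.79 ± 0.23 at 3 months, and neither passed (limma adjusted p = 0.312 and 0.255).

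Lrp6 rose with age in WT, from -0.91, -0.49 and -0.35 to 0.09, 0.21, 0.11 and 0.37, without overlap (0.78 ± 0.16, limma adjusted p = 0.00244). The other large rises were 0.82 ± 0.22 for Sfrp5 1436075_at, 0.79 ± 0.26 for Sfrp2 and 0.78 ± 0.21 for Fzd7 1450044_at (limma adjusted p = 0.0140, 0.0420 and 0.0156). The 4 Sfrp genes each had a probe set called higher. For Sfrp1 this was 1438620_x_at alone (0.46 ± 0.15, limma adjusted p = 0.0437), while 1416594_at was at 0.21 and the 3 probe sets that were higher in dKO at 6 months were at -0.81, -0.46 and -0.27, none of them called. Fzd3 gave opposite calls, with 1438101_at at 1.02 ± 0.21 and 1434788_at at -0.31 ± 0.07 (limma adjusted p = 0.00280 and 0.00687). The mean of its probe sets moved by -0.03. Wnt7a likewise had 1 probe set called higher (0.53) and 1 lower (-0.53).

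The thalamic or pallidal marker median in WT ran from -0.48 to -0.38 at 6 weeks and from 0.01 to 0.58 at 6 months. With that median and those of cortical and choroid plexus markers as covariates, 1 of the 15 members stayed called, Dkk2 at -1.87 (limma adjusted p = 0.00476). Because the thalamic or pallidal median did not overlap between these ages in WT, the fit separates it from age poorly. A lost call there does not show which of them a change follows. Counts of called members fell to 6 without WT replicate 1 of 6 weeks, 9 without replicate 2 of 6 weeks and 8 without replicate 3 of 6 months. No share over all probe sets was at hand for these counts or for the covariate fit. Age and any handling that differed between the ages cannot be told apart.

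**Figure D3:**
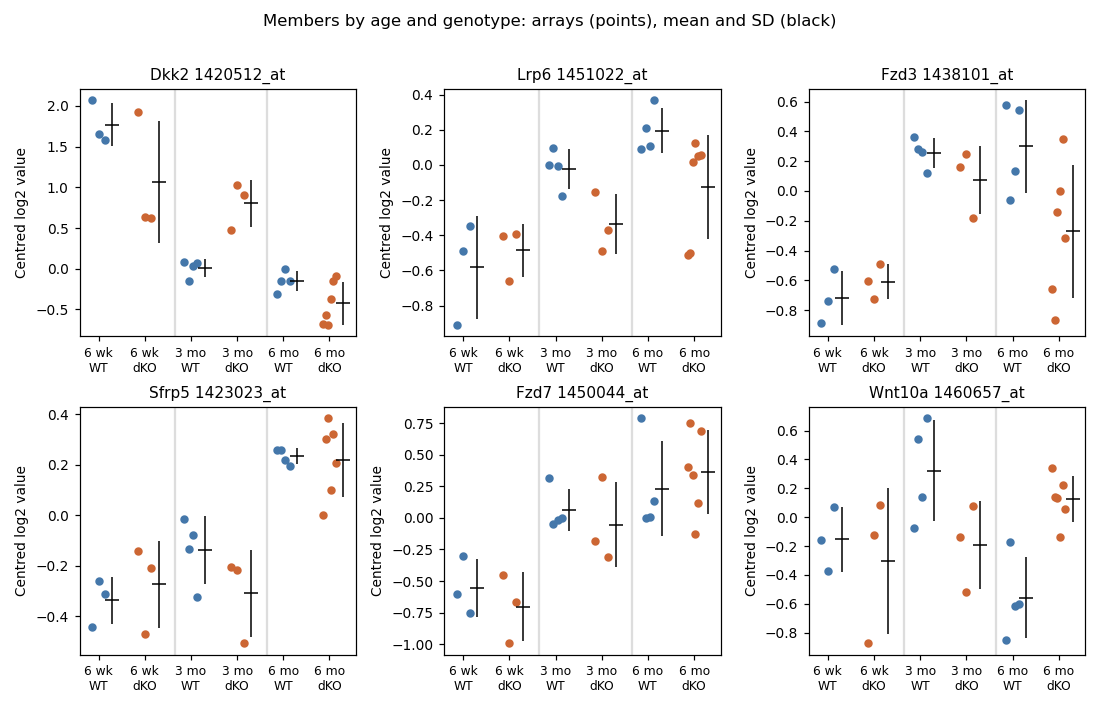
Centred log2 value (y axis) of 6 members by age and genotype (x axis), with each array as a point (blue WT, orange dKO) and the group mean and SD in black. WT values of Dkk2 are 1.58 to 2.07 at 6 weeks and at most 0.08 later, while those of Lrp6, Fzd3 1438101_at and Fzd7 are lowest at 6 weeks. Those of Sfrp5 1423023_at are -0.44 to -0.26 at 6 weeks, a range that holds WT replicate 4 of 3 months (-0.32).

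Several members followed the markers of cortical excitatory neurons from array to array. The median of 23 cortical probe sets of 12 genes was taken in each of the 23 arrays and set against each member, 80 relations in all. After Benjamini-Hochberg adjustment 18 passed in permutation tests of Pearson's r (100000 permutations), 8 positive and 10 negative. Closest was Dkk3 1448669_at, a divergent member of the Dickkopf family, with r = 0.926 and rho = 0.950 (adjusted p = 0.00016 for each, permutation p = 1e-05, the smallest 100000 permutations can give). Wnt9a 1436978_at had r = 0.923 and rho = 0.927, Dkkl1 r = 0.922 and rho = 0.863, and Wnt4 1450782_at r = 0.882 and rho = 0.856, with the same adjusted p.

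The strongest negative relations were r = -0.632 and rho = -0.621 for Dkk1 1420360_at, r = -0.628 and rho = -0.655 for Fzd5 1455604_at, and r = -0.618 and rho = -0.564 for Sfrp5 1423023_at (adjusted p for r of 0.011, 0.014 and 0.018, permutation test). The 18 were 22.5% of members, and 14.2% of all 38143 probe sets had an r at least as far from 0 as the weakest of them. Some of the 18 did not pass by rho, among them Sfrp1 1438620_x_at and Wnt9b 1443197_at (adjusted p = 0.08 and 0.094, permutation tests).

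After removing group means, r was 0.932 for Dkk3, 0.968 for Wnt9a, 0.909 for Dkkl1 and 0.897 for Wnt4. For the negative relations it was -0.388 for Dkk1, -0.630 for Fzd5 and -0.630 for Sfrp5. For Fzd7 1450043_at r went from -0.578 (adjusted p = 0.024, permutation test) to -0.167. Its rho of -0.464, with group means left in, did not pass (adjusted p = 0.11, permutation test). Without the 2 arrays farthest from the median r was -0.636, -0.599, -0.522 and -0.511 for these 4. For Dkk3, Wnt9a, Dkkl1 and Wnt4 it was then 0.939, 0.905, 0.897 and 0.849. The arrays left a gap near a median of 0.5, with 16 below and 7 above. Among the 16, r was 0.935 for Dkk3, 0.848 for Wnt9a, 0.688 for Dkkl1 and 0.703 for Wnt4. Among the 7, it was 0.333, 0.619, 0.383 and 0.495. For Dkk1, Fzd5, Sfrp5 and Fzd7 it was -0.344, -0.497, -0.298 and -0.0143 among the 16 and 0.263, -0.173, -0.452 and 0.336 among the 7. Cortical medians ran from -0.61 to -0.11 in WT and from -0.46 to 0.21 in dKO at 6 months. Of the probe sets called at 6 months, that of Wnt10a had r = 0.618 and rho = 0.586 (adjusted p = 0.015 and 0.031, permutation tests). Its r was 0.76 after removing group means, 0.607 without the 2 farthest arrays, 0.584 among the 16 and 0.0959 among the 7.

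**Figure D4:**
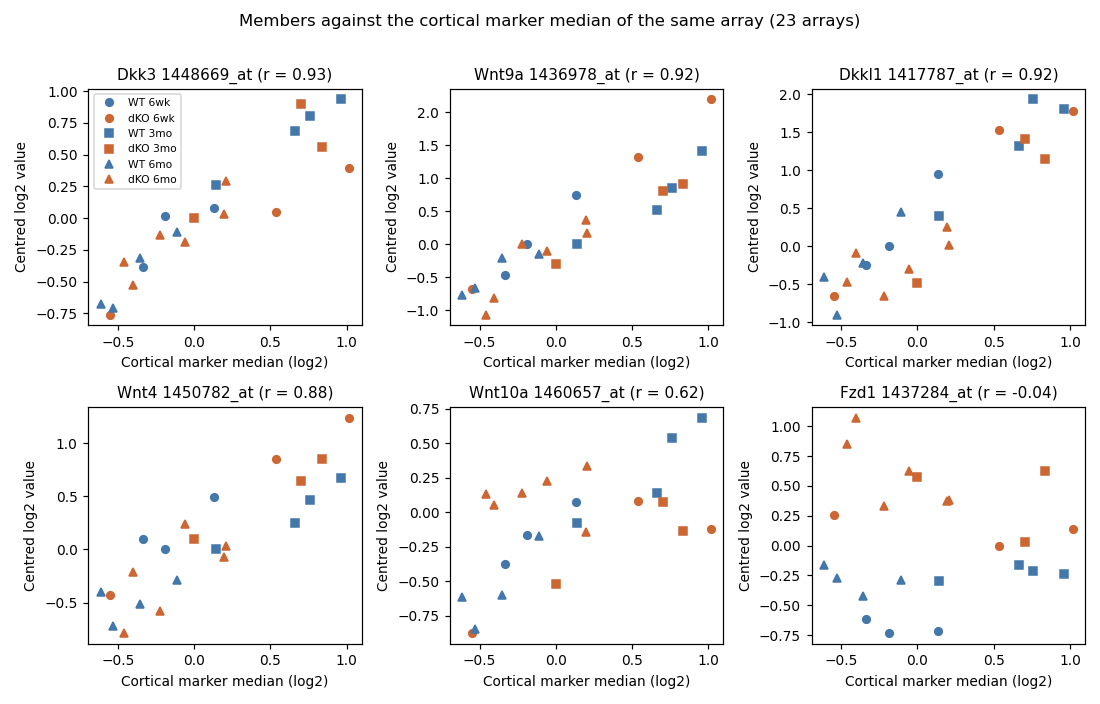
Centred log2 value of 6 members (y axis) against the median of 23 cortical neuron probe sets in the same array (x axis, log2), for 23 arrays marked by age (shape) and genotype (colour). Dkk3, Wnt9a, Dkkl1 and Wnt4 rise with the cortical median (r of 0.882 to 0.926), while the 2 genotypes of Fzd1 stay apart along it.

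Other genes of the pathway were read from 8 lists. At 6 weeks and 3 months calls in them were limited to the list of beta-catenin targets, with Cd44, a cell adhesion receptor, at both ages (1423760_at, 1.01 ± 0.17 and 1.05 ± 0.16, limma adjusted p = 0.0124 and 0.00249). Ccnd1, which encodes cyclin D1, joined it at 3 months (1417420_at, 1.19 ± 0.18, limma adjusted p = 0.00242). At 6 months this list had 11 of 51 probe sets (21.6%) higher and 3 (5.88%) lower, against 7.62% and 8.07% over all probe sets. Its median was 0.10. Ccnd1 was higher in 3 of 3 probe sets, up to 1.01 ± 0.16 (limma adjusted p = 0.000258), and Cd44 in 2. The transcription factor gene Mycn was lower (1417155_at, -0.83 ± 0.18, limma adjusted p = 0.00379).

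Nuclear effectors had 6 of 37 probe sets (16.2%) higher and 3 (8.11%) lower at 6 months, against 7.62% and 8.07% over all probe sets. Tle2 and Tle3, corepressors that bind TCF factors, rose by 0.89 ± 0.08 and up to 0.81 ± 0.13 (limma adjusted p = 5.92e-08 and 0.000233), whereas Tle4, of the same family, was lower (up to -0.40 ± 0.10). The TCF gene Tcf7 was lower in 1 of 2 probe sets (-0.64 ± 0.12, limma adjusted p = 0.00100), and it also stands in the target list.

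The cytoplasmic machinery had 8 of 67 probe sets (11.9%) higher and 4 (5.97%) lower, against 7.62% and 8.07% over all probe sets. Gsk3b, the kinase that marks beta-catenin for destruction, was lower in 2 of 6 probe sets (1434439_at, -0.51 ± 0.06, limma adjusted p = 6.18e-06). Dact1, which binds Dishevelled, was higher (0.57 ± 0.13, limma adjusted p = 0.00450), and probe sets of Btrc, a ubiquitin ligase subunit that recognises beta-catenin, gave opposite calls (0.57 and -0.55). Ctnnb1, which encodes beta-catenin, was higher in 1 of 3 probe sets (0.27 ± 0.09).

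The 5 smaller lists are read against 7.62% higher and 8.07% lower over all probe sets at 6 months. In the secretion and release list 2 of 11 probe sets (18.2%) were higher, among them Notum, a secreted enzyme that removes the lipid of Wnts (0.77 ± 0.14, limma adjusted p = 0.000961), and Gpc3, a glypican (0.54 ± 0.13, limma adjusted p = 0.00557). Lgr6, an R-spondin receptor, was the only call among 15 probe sets of R-spondins and their receptors and ligases (0.88 ± 0.15, limma adjusted p = 0.000388). Shisa3, of a family known from Xenopus to retain Fzd receptors inside the cell, gave both calls among 30 probe sets of other inhibitors (0.97 ± 0.18 and 0.60 ± 0.17). Of 12 probe sets of other coreceptors, 1 was lower, that of Musk, a receptor kinase of the neuromuscular junction (-0.78 ± 0.16). Planar cell polarity had 2 of 24 (8.33%) higher, both of Vangl2 (up to 0.34 ± 0.10), and 2 lower. The latter were 1 of 3 probe sets of Daam1 and 1 of 2 of Daam2 (-0.52 ± 0.15 and -0.36 ± 0.10). Adjusted p-values of those named without one ran from 0.000910 to 0.0358 in limma.

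**Figure D5:**
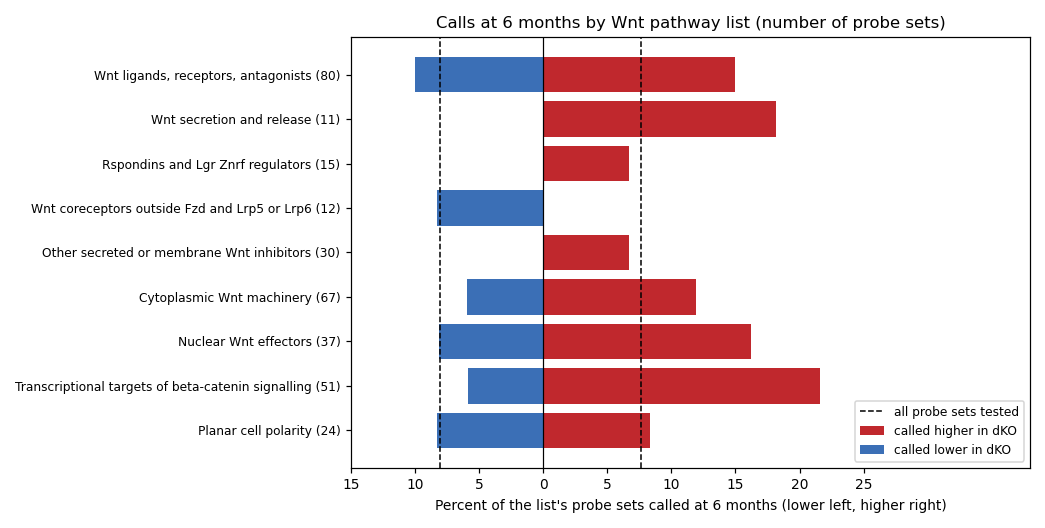
Percent of the probe sets in each list (y axis, number of probe sets in parentheses) called lower (left, blue) or higher (right, red) in dKO at 6 months, with the shares over all 38143 probe sets as dashed lines (8.07% and 7.62%). The beta-catenin target list has 11 of 51 probe sets higher, and 3 lists have none lower.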

How the data were processed

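Per the labels' protocols, biotinylated cRNA was made from 6 ug of striatal total RNA by the Affymetrix procedure. The authors deposited log2 values, and the submitters' processing notes name RMA. The sources used here do not give the array design, annotation release or RMA version. An array sits at exactly 0 in 39666 of 45101 probe sets (87.95%), so values were centred per probe set before deposit. Levels are lost, so dim probe sets could not be filtered. The series value table supplied the values and the authors' normalized table the symbols. In the latter, 2 columns with 1 shared name were left out, and its other 21 were identical. Only the 38143 probe sets with 1 symbol were tested (1253 had several, 5705 none).

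Groups and ages came from the labels. The labels do not pair animals, and replicates of one group are separate samples per the design text. The smallest median absolute difference between 2 arrays was 0.104. One mean per group was fitted to all 23 arrays with limma 3.58.1 in R 4.3.3 (default eBayes, residual df 17, prior df 4.77), two-sided, with Benjamini-Hochberg adjustment. The 6 comparisons set dKO against WT at each age, that difference between 6 months and each other age, and WT at 6 months against WT at 6 weeks. Code was tested on simulated data.

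The members, the 8 pathway lists and the 11 cell type marker lists were chosen with earlier results of these data known. Named members were those called, up to 12 each way at each age, or the 4 lowest unadjusted p where fewer than 4 were called, and the 6 largest called changes between ages and in WT with age. Named list genes were those called with the largest changes. Dkk2 in dKO, Wnt7a, Tle4 and further list members beside them were chosen after their values were seen. Promoters and gene order came from RefSeq tables of GRCm38.p6, which held all 43 genes, with promoters for 28. The build of the files is not given, so no gene coordinates are mixed with them. Alternatives covered normalization, choice of probe set, filter, fit, threshold and covariates, a replicate block, and leaving out each array. Plots used matplotlib 3.10.9 (Python 3.11.15).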

Additional observations from a re-analysis of the deposited data

Results flagged for a closer look

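In 25 member probe sets, 75 groups of 4 to 6 arrays were searched for an array far from the others, and 6 were found. Chance gives about 1 in 20. WT replicate 1 of 6 months had 3 of them: Wnt10b at -0.1937 (the others -0.0208 to 0.012), Fzd9 at -0.2159 (-0.0145 to 0.0084) and Fzd7 1450044_at at 0.7882 (0.0 to 0.1304). WT replicate 1 of 3 months had 2, with Fzd7 1450044_at at 0.3148 (-0.0463 to 0.0) and Sfrp5 1436075_at at 0.0788 (-0.2583 to -0.2119). The choroid plexus marker median was 2.76 in WT replicate 1 of 6 months (-0.37 to 0.15 in the other 3 WT arrays, 2.93 in dKO replicate 2) and 1.27 in WT replicate 1 of 3 months (-0.42 to 0.41 in the other 3), and its part in these values was not tested. WT replicate 3 of 3 months had Sfrp1 1448395_at at -0.4048 (-0.1519 to -0.1241).

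The genotype difference moved between 3 and 6 months for Wnt10a by 1.2 and for Wnt2 by -1.1211 on the log2 scale, both called by limma (adjusted p = 0.0327 and 0.0123). In Wnt10a, 3 of 3 dKO arrays of 3 months lay within or below the WT range and 6 of 6 of 6 months above it. In Wnt2, 6 of 6 dKO arrays of 6 months lay below WT, and the groups overlapped at 3 months.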

How the results depend on the processing

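The 20 members called at 6 months kept their direction in each of 15 other settings that tested them (14 for 2 members that the SD filter left out) and with each array left out, and 7 kept the call in all of them. The adjusted p of 0.01 and the 1.5-fold threshold reused the main fit, so direction could not change in them. Quantile normalization called 3 members higher and 2 lower at 3 months. With 1 probe set a gene of largest SD, 7 were higher and 3 lower at 6 months, 0 were lower at 3 months and 9 changed in WT with age. With the mean of a gene's probe sets, 6 and 3 were called at 6 months and 1 higher and 0 lower at 3 months. It gave 0 higher at 6 weeks and 9 in WT with age. There the mean for Fzd3 was -0.03175, against 1.0161 for its probe set 1438101_at in the main fit. These 2 settings test fewer members by construction, and they score 1 value a gene in place of the named probe set. Testing all probe sets left 0 lower at 3 months. Fits on the compared groups alone gave 7 higher and 5 lower at 6 months, 1 and 0 at 3 months, and 0 higher at 6 weeks. Array weights (0.356 to 5.32) gave 11 and 5 at 6 weeks, 3 and 2 at 3 months, 8 and 5 for the moves from 6 weeks and from 3 months to 6 months, and 30 in WT with age. An adjusted p under 0.01 left 0 higher at 6 weeks, 0 lower at 3 months, 5 and 3 at 6 months, 0 for the move from 3 months and 5 in WT with age. A fold change of at least 1.5 left 2 lower at 6 months and 7 in WT with age. Cortical and choroid plexus covariates gave 2 lower at 3 months and 1 for the move from 6 weeks, and an Xist covariate 8 in WT with age. Adding the thalamic or pallidal covariate, chosen after seeing the data, gave 0 higher at 6 weeks, 3 lower at 3 months and 1 in WT with age. The cause of these moves was not tested, and no shares over all probe sets were set beside the counts in these settings.

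Leaving out 1 array gave 0 to 2 higher and 0 to 1 lower at 6 weeks, 0 to 2 each way at 3 months, 6 to 13 higher and 5 to 9 lower at 6 months, 0 to 4 for the move from 3 months, 0 for that from 6 weeks and 6 to 21 in WT with age. Same-numbered arrays of an age correlated from -0.365 to 0.153 over 10 pairs, after removing group means. Arrays with different numbers were not compared, so this cannot decide whether the numbers pair samples. With a replicate block 0 were higher at 6 weeks, 0 lower at 3 months and 0 called for the move from 3 months. No shares over all probe sets were set beside the counts with an array left out or with the block. WT with age could not be fitted with the block, and the filter on dim probe sets was replaced by one on SD.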
